A study of Mus musculus with 30 samples.

Results

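Genes that govern how pyruvate enters mitochondria and what becomes of it there were followed in mouse embryonic stem cells (mESCs) across culture time and media. The 10 were taken by gene symbol: Mpc1, Mpc2, Pdha1, Pdhb, Pdk1, Pdk2, Pdk3, Pdk4, Pdp1 and Pcx. All 10 were found among the 52630 Ensembl genes of the time-course table and among the 55487 genes of the passage table, and all 10 passed the filter on low counts in both. The question asked of them was how their mRNA levels differ when the carbon sources of the medium are changed. RNA-seq was done in E14tg2a, 1 established mESC line, so line and strain were not varied. In the time course, 12 libraries fall into 4 groups of 3. Control cells were in Serum/LIF, a serum medium with glucose, pyruvate and the cytokine LIF, and the others were moved to EMM, which is the same medium with galactose in place of glucose and pyruvate, for 3, 9 or 24 h. The change of sugar and the loss of added pyruvate therefore cannot be told apart. The controls are labelled 0 h, while the protocol text describes 24 h in Serum/LIF. No Serum/LIF group is labelled as matched to 3 h or 9 h. Hours since the change of medium and EMM itself therefore cannot be told apart at those times. In the passage experiment, 18 libraries fall into 6 groups of 3, with 10 passages (P10) or 20 passages (P20) in each of Serum/LIF, EMM and 2i/LIF. 2i/LIF is a medium with LIF and inhibitors of GSK3 and MEK. It differs from the other media in more than the inhibitors, since the paper's proteome methods give it another base medium. The parts played by its components therefore cannot be told apart. Values below are normalized counts, that is, counts scaled to the effective library size within each experiment, and the level of a gene is not compared between the experiments.

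Library totals ran from 24074132 to 35301962 counts in the time course and from 6944904 to 27912928 in the passage experiment, where the shallowest was P20 2i/LIF replicate 1. The summed level of 6 ES cell markers (Pou5f1, Sox2, Nanog, Zfp42, Esrrb and Tdgf1) was 121115 to 124195 in Serum/LIF and 120315 to 121271, 117938 to 119175 and 121994 to 125355 at 3, 9 and 24 h of EMM. At P10 it was highest in EMM, with 69621 to 76334 against 50224 to 53438 in Serum/LIF and 45999.7 to 48735 in 2i/LIF, and at P20 it was 59635 to 63174 in Serum/LIF, 52817 to 54039 in EMM and 55649.7 to 60471 in 2i/LIF. The summed level of 6 fibroblast markers (Col1a1, Col1a2, Col3a1, Thy1, Postn and Lum) separated Serum/LIF from the other media: 2225 to 2661 against 286 to 364 in EMM and 45.0 to 66.0 in 2i/LIF at P10, and 3572 to 7104 against 142 to 189.7 and 91.6 to 98.7 at P20. Lum was at 0 in all 3 EMM libraries at P10 but reached 14.1 in 2i/LIF at P20, and Postn was at 0 in all 6 EMM libraries. Other marker sums also lay apart between groups, though not tested. In the time course, in Serum/LIF and at 3, 9 and 24 h of EMM in turn, the summed level of 6 primitive endoderm markers was 408 to 443, 470.3 to 497, 533 to 595 and 739 to 752. In the same order, that of 6 trophoblast markers was 1676 to 1697, 1515 to 1559, 2112 to 2228 and 2264 to 2337, so it lay below Serum/LIF at 3 h and above it at 9 h and 24 h. A sum can hide members that go the other way, and the paper reports Cdx2 and Elf5, both in this list, as lowered in EMM. The sum of 4 mesoderm markers was 508 to 556, 502 to 531, 570.3 to 618 and 378 to 432, that of 4 neural markers 2626 to 3015, 3768 to 3924, 3491 to 3945 and 2911 to 3075, and that of the fibroblast markers 1802 to 1890.3, 1745 to 2046, 1649 to 1749.7 and 1252 to 1473. At P10, in EMM, Serum/LIF and 2i/LIF in turn, primitive endoderm markers were 109 to 125, 172 to 226 and 91.5 to 103 and trophoblast markers 385 to 504, 1238 to 1408 and 702 to 896. Mesoderm markers at P10 were 101 to 118, 286 to 789 and 665 to 903 and neural markers 1194 to 1399.6, 1125 to 1268 and 304 to 407. At P20, in EMM, Serum/LIF and 2i/LIF in turn, primitive endoderm markers were 224 to 345, 226 to 315 and 77.5 to 136 and trophoblast markers 1086 to 1175, 1137 to 1373 and 811 to 871. Mesoderm markers at P20 were 47.0 to 70.7, 331 to 360.4 and 136 to 180.3 and neural markers 1636 to 1739.6, 1256 to 1337 and 1504 to 1628. The part of these markers in the results was not tested. In bulk RNA, fewer cells of a type and less RNA per cell cannot be told apart.

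Pyruvate made in the cytosol crosses the inner mitochondrial membrane through the mitochondrial pyruvate carrier, a pairing of the MPC1 and MPC2 proteins. In the matrix it meets competing enzymes. The pyruvate dehydrogenase complex turns it into acetyl-CoA, and its E1 part is built from the alpha subunit PDHA1 and the beta subunit PDHB. Pyruvate dehydrogenase kinases (PDK1 to PDK4) phosphorylate the alpha subunit and switch the complex off, and phosphatases such as PDP1 remove the phosphate and switch it on again. Pyruvate carboxylase, encoded by Pcx, instead turns pyruvate into oxaloacetate and so refills the tricarboxylic acid cycle. Textbook accounts place Pdk1 among genes switched on by hypoxia-inducible factors and Pdk4 among genes raised by fasting, fatty acids and PPAR or FOXO factors. Messenger RNA levels were measured here, not protein, phosphorylation or flux.

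Upstream sequences are shown for Pdk1, Pdk2 and Pdk4, kinase genes whose mRNAs took separate courses, and for Pcx, which was high in EMM. They come from RefSeq on GRCm38.p6, run 5′ to 3′ on the gene's strand, and end at the outermost listed start site or, for Pdk4, 31 bases before it, where the GENCODE gene begins. Capitals mark matches on either strand to CCAAT, to the E-box CACGTG and to the HIF core ACGTG, which lies inside the E-box, so that each E-box is also counted as a HIF core.
Pdk1, chr2:71872974-71873223, plus strand: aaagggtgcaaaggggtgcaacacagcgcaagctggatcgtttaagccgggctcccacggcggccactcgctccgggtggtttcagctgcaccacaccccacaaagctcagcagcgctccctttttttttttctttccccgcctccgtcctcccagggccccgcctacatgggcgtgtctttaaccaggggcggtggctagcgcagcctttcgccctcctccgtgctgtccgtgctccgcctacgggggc
Pdk2, chr11:95041372-95041621, minus strand: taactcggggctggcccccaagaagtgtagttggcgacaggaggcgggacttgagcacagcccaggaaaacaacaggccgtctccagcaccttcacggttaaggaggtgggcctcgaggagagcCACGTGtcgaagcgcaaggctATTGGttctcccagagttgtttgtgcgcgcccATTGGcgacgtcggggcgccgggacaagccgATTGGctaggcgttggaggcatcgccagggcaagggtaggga
Pdk4, chr6:5496310-5496528, minus strand: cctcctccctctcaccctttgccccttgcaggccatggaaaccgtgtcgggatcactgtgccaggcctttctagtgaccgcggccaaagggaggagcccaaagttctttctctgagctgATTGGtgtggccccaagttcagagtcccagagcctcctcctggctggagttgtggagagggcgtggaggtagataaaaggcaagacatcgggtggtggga
Pcx, chr19:4510222-4510471, plus strand: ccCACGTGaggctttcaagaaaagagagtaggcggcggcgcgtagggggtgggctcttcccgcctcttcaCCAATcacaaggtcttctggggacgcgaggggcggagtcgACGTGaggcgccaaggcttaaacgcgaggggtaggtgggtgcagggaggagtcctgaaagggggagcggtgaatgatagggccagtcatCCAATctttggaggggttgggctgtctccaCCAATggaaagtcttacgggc
Of the 10 genes, 9 had an entry, with 13 windows of 250 upstream bases in all. The E-box CACGTG was found in 2 of the 13 windows, those of Pdk2 (126 bases before the start) and Pcx (248 bases before it), against 6.02% of 32851 windows of all genes. ACGTG was found in 4 of the 13, those of Pdk2, Pcx, Pdhb and Pdk3, against 16.6% of all. CCAAT was found in 7 of the 13 against 33.8% of all. The letters GTAAACA, a FOXO motif, and AAGGTCA, an ERR motif, were in none of the 13, against 3.17% and 4.08% of all windows. These are letter matches, and nothing here bears on whether a factor binds.

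Levels of different genes can be set beside each other only per length, and are given as normalized counts per kb of exon. The E1 subunit genes led in Serum/LIF at 0 h, with 2646 ± 149 for Pdha1 and 1698 ± 32.0 for Pdhb (SD, n = 3). Pdk1 followed with 1218 ± 48.2, then Pdk3 with 504 ± 6.98 and Pcx with 258 ± 16.7. The remaining 5 genes lay between 40.4 ± 3.96 (Mpc1) and 80.8 ± 5.18 (Pdp1), where Pdp1, Pdk4 and Pdk2 did not differ beyond their spread. The order of these 5 depends on the length used: per kb of the longest transcript, a choice made after seeing the data, Mpc1 stood at 87.5 ± 8.57, level within the spread with Pdp1 (86.6 ± 5.55) and above Pdk4 (73.6 ± 3.85), and Pdk2 was the highest of the 5 at 102 ± 10.9. The same 3 genes, Pdha1, Pdhb and Pdk1, held the top places in every group except P20 2i/LIF, where Pdk3 (238 ± 3.67) stood above Pdk1 (196 ± 51.1). Those levels were closer together than the SD of Pdk1, and per kb of the longest transcript Pdk1 (294 ± 76.6) was not below Pdk3 (288 ± 4.44). In P20 EMM, Pdk1 (934 ± 38.0) stood above Pdhb (787 ± 21.8).

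A gene was taken as changed when its edgeR adjusted p, corrected over all genes tested, was under 0.01. At 3 h of EMM, 1 of the 10 genes was higher than in Serum/LIF and 3 were lower, where 34.5% of all 16049 genes tested changed in either direction. At 9 h the counts were 3 and 3 (background 38.2%), and at 24 h they were 4 and 3 (background 44%). The median log2 fold change of the 10 genes was -0.04, 0.04 and 0.09 at these times, beside -0.01, 0.00 and 0.00 over all genes. Between consecutive times, 2 genes rose from 3 h to 9 h (background 26.5%) and 1 fell from 9 h to 24 h (background 13%). In the passage experiment, EMM differed from Serum/LIF in 6 higher and 3 lower genes at P10, against 37.4% of 16054 genes tested, and in 3 higher and 1 lower at P20, against 26%. The median log2 fold change of the 10 genes was 0.59 at P10 and 0.13 at P20, beside 0.01 and 0.00 over all genes. Compared with 2i/LIF, EMM had 4 higher and 0 lower genes at P10 (background 45.1%) and 6 higher and 2 lower at P20 (background 48.6%). Their medians were 0.10 and 0.49, beside 0.01 and 0.02 over all genes. The P10 count of 0 lower genes becomes 1 with the DESeq2 Wald test (Pdk4), and Pdk4 alone of the genes with a negative value there was under an unadjusted p of 0.05. 2i/LIF differed from Serum/LIF in 2 higher and 4 lower genes at P10 (background 52%) and in 1 higher and 4 lower at P20 (background 44.2%), with medians of -0.23 and -0.27 beside 0.02 and -0.01. The largest shares of the set were 9 of 10 for EMM against Serum/LIF at P10 and 8 of 10 for EMM against 2i/LIF at P20, and the difference of a share from its background was not tested. Comparisons with the same medium share its libraries.

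**Figure D1:**
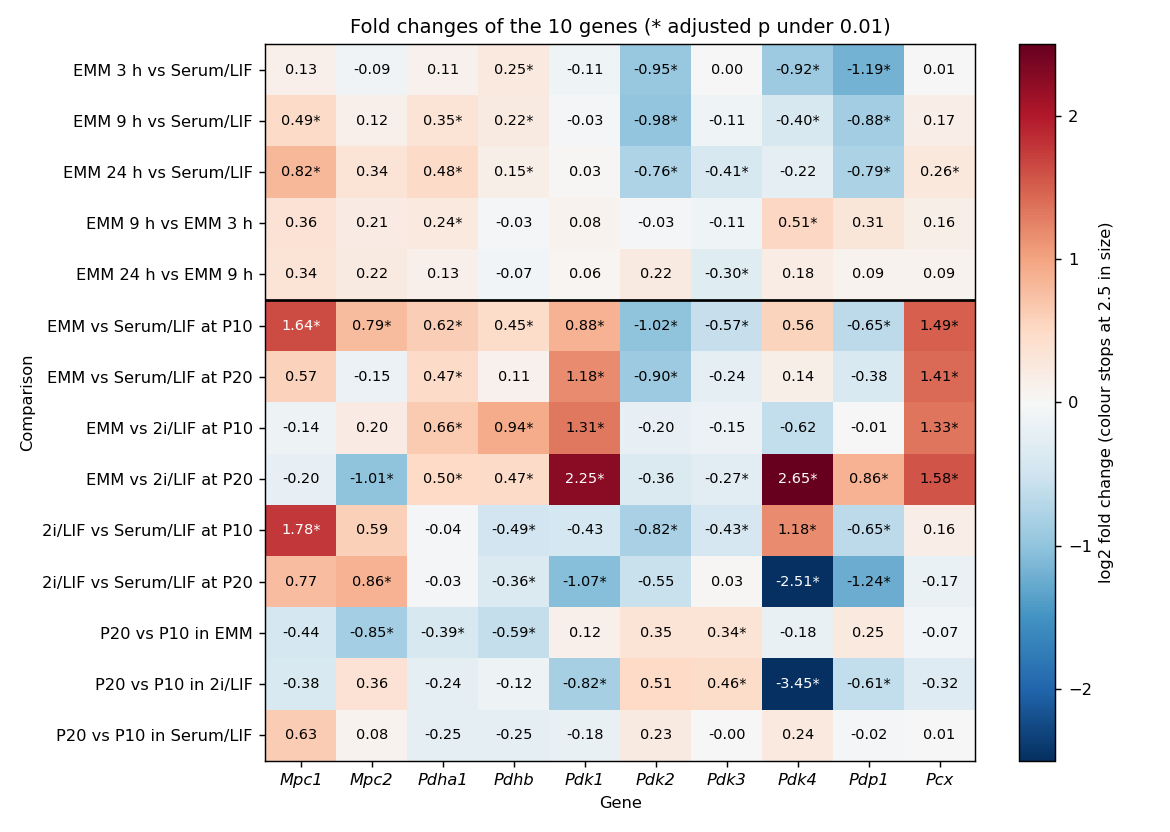
Log2 fold change (colour and printed value) of each of the 10 genes (columns) in each comparison (rows), with time-course comparisons above the line and passage comparisons below it. An asterisk marks an edgeR adjusted p under 0.01. Pdk2 is negative with an asterisk in all 5 comparisons of EMM with Serum/LIF, and Pcx exceeds 1 in all 4 passage comparisons of EMM with another medium.

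Of the carrier genes, Mpc1 rose in EMM at 9 h, at 24 h and at P10, while Mpc2 passed in EMM against Serum/LIF at P10 alone. Mpc1 (chromosome 17, 8282904 to 8297661, GRCm38) stood at 93.2, 81.9 and 77.2 normalized counts in the 3 Serum/LIF libraries at 0 h. It stood at 107, 89.2 and 80.3 at 3 h, 119.9, 106 and 127 at 9 h and 136, 158 and 152 at 24 h of EMM. The 3 h libraries overlapped the controls, while the 9 h and 24 h libraries all lay above them. The log2 fold change was 0.13 (adjusted p = 0.462, SE 0.133) at 3 h, 0.49 (adjusted p = 0.0052, SE 0.128) at 9 h and 0.82 (adjusted p = 4.94e-05, SE 0.125) at 24 h. At 9 h the gene no longer passed once 1 library was dropped from among Serum/LIF replicates 2 and 3 and EMM 9 h replicates 1 and 3, with adjusted p from 0.0153 to 0.0207. Mpc1 shares 480 exonic bases with 4930506C21Rik on the opposite strand, and the counting of the time course is not stated to use strand.

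In the passage experiment Mpc1 had 94.5, 102 and 91.4 normalized counts in Serum/LIF at P10. It had 335, 354 and 197 in EMM and 246, 398 and 342 in 2i/LIF. Every library of both media lay above every Serum/LIF library, although EMM replicate 3 was well below the other EMM libraries. The log2 fold change was 1.64 (adjusted p = 3.99e-05, SE 0.259) for EMM and 1.78 (adjusted p = 9.3e-06, SE 0.257) for 2i/LIF, and EMM and 2i/LIF differed by -0.14 (95% interval -0.64 to 0.37). At P20 Serum/LIF had 176, 139 and 130.1, EMM 215, 226 and 221 and 2i/LIF 139, 259 and 339. The EMM libraries still lay above Serum/LIF, but the differences of 0.57 (adjusted p = 0.0719, SE 0.244) for EMM and 0.77 (adjusted p = 0.0133, SE 0.248) for 2i/LIF did not pass. Without P20 2i/LIF replicate 1, the lowest of its group, the latter was 1.01 (adjusted p = 0.000543).

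Mpc2 (chromosome 1, 165460637 to 165481214) did not pass in any comparison of the time course. Its libraries split within groups, with 349.7, 369.6 and 521 normalized counts at 9 h and 368, 522 and 556 at 24 h against 402, 305 and 436 in Serum/LIF. Without EMM 24 h replicate 1, the low library, the 24 h log2 fold change went from 0.34 to 0.52 (adjusted p = 0.00949). At P10 Mpc2 had 128, 139 and 133 in Serum/LIF and 199, 238 and 261 in EMM, with no overlap and a log2 fold change of 0.79 (adjusted p = 0.00418, SE 0.208). That call was lost without any one of 5 of the 6 libraries (all but P10 EMM replicate 1), with adjusted p up to 0.0171. At P20 it was 122, 138 and 123 in EMM and 378, 197 and 220.3 in 2i/LIF, and the 2i/LIF libraries lay above both EMM and Serum/LIF. EMM against 2i/LIF gave -1.01 (adjusted p = 0.000308, SE 0.202), and 2i/LIF against Serum/LIF gave 0.86 (adjusted p = 0.00153, SE 0.204). The latter call was lost without P20 Serum/LIF replicate 3 (adjusted p = 0.0106). Of all the comparisons, Mpc1 and Mpc2 both passed in EMM against Serum/LIF at P10 alone.

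**Figure D2:**
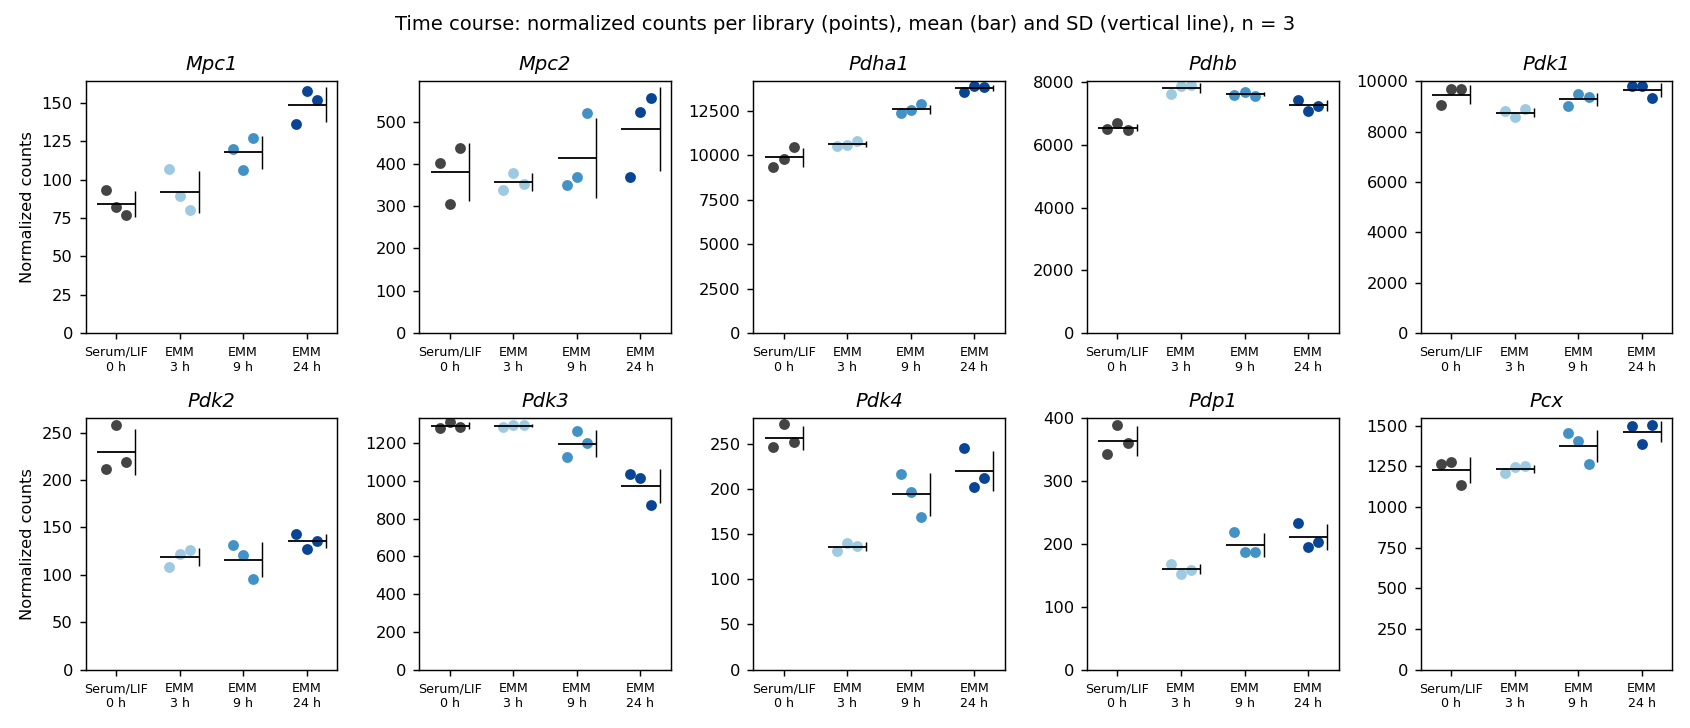
Normalized counts (vertical axes, from 0) of the 10 genes in Serum/LIF at 0 h and after 3, 9 and 24 h of EMM, with 1 point per library, the mean as a bar and the SD as a vertical line (n = 3). Pdk2 and Pdp1 fell below every control library by 3 h and stayed there, Pdk4 fell at 3 h and then rose, and Mpc1 and Pdha1 were highest at 24 h.

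Both E1 subunit genes rose in EMM. Pdha1 (chromosome X, 160122209 to 160138413), which encodes the subunit that PDKs phosphorylate, had 9366, 9805 and 10472 normalized counts in Serum/LIF. It had 10524, 10593 and 10809.9 at 3 h, 12386, 12539 and 12876 at 9 h and 13578, 13918 and 13831 at 24 h. Each later group lay above the one before without overlap. The log2 fold change was 0.11 at 3 h (adjusted p = 0.0367, edgeR, passing only without Serum/LIF replicate 3, at 0.00402), 0.35 (adjusted p = 3.39e-06, SE 0.0395) at 9 h and 0.48 (adjusted p = 9.47e-08, SE 0.0395) at 24 h. The step from 3 h to 9 h passed (0.24, adjusted p = 0.000186, SE 0.0394) and the step from 9 h to 24 h did not (0.13, adjusted p = 0.0276, SE 0.0393). Pdha1 shares 603 exonic bases with Map3k15 on the opposite strand, with the same limit on strand as for Mpc1.

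Pdhb (chromosome 14, 8165996 to 8173025), the beta subunit gene, reached its level by 3 h, going from 6494, 6699 and 6476 in Serum/LIF to 7619, 7882 and 7908. At 24 h it was 7436, 7099 and 7253, still above every control. Its log2 fold changes were 0.25 (adjusted p = 1.93e-05, SE 0.0332) at 3 h and 0.15 (adjusted p = 0.00148, SE 0.0332) at 24 h. The rise at 3 h was 1.19-fold and ranked 7480 in size among the 16049 genes tested.

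In long-term culture Pdha1 was 9695, 9885 and 9239 in EMM at P10 against 6627, 6526 and 5641 in Serum/LIF and 5976, 6397 and 5877 in 2i/LIF. EMM lay above both other media without overlap, while those overlapped each other. The log2 fold changes of EMM were 0.62 (adjusted p = 2.06e-06, SE 0.0749) against Serum/LIF and 0.66 (adjusted p = 6.74e-07, SE 0.075) against 2i/LIF, and at P20 they were 0.47 (adjusted p = 7.61e-05, SE 0.0747) and 0.50 (adjusted p = 1.32e-05, SE 0.0749). Between 2i/LIF and Serum/LIF the differences were -0.04 (95% interval -0.20 to 0.11) at P10 and -0.03 (-0.19 to 0.13) at P20. Pdhb was 3488, 3250.1 and 3276 in Serum/LIF, 4216, 4746 and 4742 in EMM and 2609, 2360.0 and 2193 in 2i/LIF at P10, in which EMM was highest and 2i/LIF lowest with no overlap. The log2 fold change was 0.45 (adjusted p = 4.38e-05, SE 0.0718) for EMM against Serum/LIF at P10 and 0.11 (adjusted p = 0.237, SE 0.0716) at P20, where it did not pass. In 2i/LIF Pdhb was below Serum/LIF at both passages (-0.49, adjusted p = 1.3e-05, SE 0.0723 and -0.36, adjusted p = 0.000334, SE 0.0724).

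The kinase genes took separate courses. Pdk1 (chromosome 2, 71873224 to 71903858) was the most abundant of the 4 per kb in every group but P20 2i/LIF, and it did not pass in the time course. It had 9039, 9676 and 9700.0 normalized counts in Serum/LIF and 9826, 9813 and 9329 at 24 h of EMM, a log2 fold change of 0.03 with a 95% interval of -0.06 to 0.11. At 3 h its log2 fold change was -0.11 (adjusted p = 0.0263, edgeR), which passed when Serum/LIF replicate 1 was left out (-0.14, adjusted p = 0.00916). After long culture the media came apart. At P10 Pdk1 had 3598, 3683 and 3649.9 in Serum/LIF, 7123, 6662 and 6286 in EMM and 3075, 2964 and 2081 in 2i/LIF. At P20 it had 3376, 3329.9 and 2936 in Serum/LIF, 7163, 7031 and 7596 in EMM and 1461, 1948 and 1161 in 2i/LIF. The order EMM, Serum/LIF, 2i/LIF held at both passages with no overlap between media. EMM exceeded Serum/LIF by 0.88 (adjusted p = 6.85e-05, SE 0.146) at P10 and 1.18 (adjusted p = 5.93e-06, SE 0.146) at P20. It exceeded 2i/LIF by 1.31 (adjusted p = 6.01e-07, SE 0.148) at P10 and by 2.25 (adjusted p = 5.1e-10, SE 0.152) at P20, a 4.75-fold difference. 2i/LIF was below Serum/LIF, at -1.07 (adjusted p = 7.08e-06, SE 0.149) at P20, while at P10 the difference of -0.43 (adjusted p = 0.0154, SE 0.146) did not pass, although it did without P10 2i/LIF replicate 1 (-0.53, adjusted p = 0.00751).

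Pdk2 (chromosome 11, 95026258 to 95041354) was lower in EMM than in Serum/LIF at every time and passage. It had 212, 258 and 219 normalized counts in Serum/LIF at 0 h. At 3 h it had 108, 122 and 126, at 9 h 132, 121 and 95.4 and at 24 h 143, 128 and 136. The highest EMM library was below the lowest control at each time, and the 9 h libraries overlapped those of 3 h and 24 h. The log2 fold changes were -0.95 (adjusted p = 9.4e-06, SE 0.117), -0.98 (adjusted p = 6.3e-06, SE 0.117) and -0.76 (adjusted p = 4.96e-05, SE 0.116). At P10 Pdk2 had 79.1, 87.3 and 82.1 in Serum/LIF, 38.6, 34.3 and 52.7 in EMM and 34.5, 49.4 and 54.6 in 2i/LIF. At P20 it had 103, 96.4 and 92.6 in Serum/LIF, 46.5, 58.8 and 50.1 in EMM and 58.7, 59.8 and 79.5 in 2i/LIF. Serum/LIF stood above both other media without overlap. EMM was below Serum/LIF, at -1.02 (adjusted p = 0.000567, SE 0.209) at P10 and -0.90 (adjusted p = 0.00109, SE 0.19) at P20. The 2i/LIF libraries were also below Serum/LIF at P10 (-0.82, adjusted p = 0.00174, SE 0.202), while at P20 the difference of -0.55 (adjusted p = 0.0228, SE 0.194) did not pass. EMM and 2i/LIF were not separated, with differences of -0.20 (95% interval -0.66 to 0.27) at P10 and -0.36 (-0.77 to 0.06) at P20.

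Pdk3 (chromosome X, 93764607 to 93832201) changed late and little in the time course. It went from 1279, 1312 and 1284 in Serum/LIF to 1282, 1297 and 1296 at 3 h, a log2 fold change of 0.00 (95% interval -0.13 to 0.13). At 24 h it was 1036, 1016 and 872, below every other library of the experiment, with a log2 fold change of -0.41 (adjusted p = 4.9e-05, SE 0.0616) against Serum/LIF. The step from 9 h to 24 h (-0.30, adjusted p = 0.00275, SE 0.0614) lost its call without EMM 9 h replicate 2 (adjusted p = 0.0172) or EMM 24 h replicate 3 (0.0113). At P10 it was lower in EMM (386, 402 and 419) and in 2i/LIF (443, 423 and 464) than in Serum/LIF (561, 639 and 590.0), by -0.57 (adjusted p = 1e-05, SE 0.0797) and -0.43 (adjusted p = 0.000124, SE 0.0784). At P20 it had come back in 2i/LIF (613, 616 and 599), where it overlapped Serum/LIF (635, 567 and 587). The rise from P10 to P20 was 0.46 (adjusted p = 0.000172, SE 0.0789) in 2i/LIF and 0.34 (adjusted p = 0.00283, SE 0.0792) in EMM. The EMM call was lost without any one of P10 EMM replicates 1 and 2 or P20 EMM replicate 3, with adjusted p up to 0.0182. EMM was below 2i/LIF at P20, at -0.27 (adjusted p = 0.00601, SE 0.077), a call lost without any one of 5 of the 6 libraries (all but P20 EMM replicate 3), with adjusted p up to 0.0299.

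Pdk4 (chromosome 6, 5483351 to 5496309) gave the largest single change of the set. In the time course it dipped and came back. It had 246, 271 and 252 normalized counts in Serum/LIF and 131, 140.4 and 136 at 3 h. It had 216, 196 and 169 at 9 h and 245, 202 and 212 at 24 h. All EMM groups lay below the controls, with the highest 24 h library just under the lowest control. The log2 fold change was -0.92 (adjusted p = 3.8e-06, SE 0.103) at 3 h, -0.40 (adjusted p = 0.00319, SE 0.0985) at 9 h and -0.22 (adjusted p = 0.064, SE 0.0977) at 24 h, where it did not pass. The recovery from 3 h to 9 h passed (0.51, adjusted p = 0.00116, SE 0.104). The 9 h call against Serum/LIF was lost without Serum/LIF replicate 2 (-0.34, adjusted p = 0.0234) or EMM 9 h replicate 3 (-0.30, adjusted p = 0.0208).

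In long-term culture Pdk4 differed most in 2i/LIF. At P10 it had 174, 225 and 266 normalized counts in 2i/LIF, 169, 159 and 101 in EMM and 78.1, 109 and 109.9 in Serum/LIF. The 2i/LIF libraries were the highest, and EMM overlapped Serum/LIF. At P20 the same medium gave 18.8, 17.0 and 24.9, against 127, 126 and 131 in EMM and 117, 127 and 104 in Serum/LIF. The P20 2i/LIF libraries were now the lowest of all 18, from raw counts of 8, 23 and 26. 2i/LIF exceeded Serum/LIF by 1.18 (adjusted p = 4.34e-05, SE 0.195) at P10 and differed from it by -2.51 (adjusted p = 8.23e-08, SE 0.243) at P20. From P10 to P20 in 2i/LIF the log2 fold change was -3.45 (adjusted p = 7.76e-09, SE 0.239), an 11-fold fall that ranked 252 in size among 16054 genes. In the same interval Pdk4 differed by -0.18 (95% interval -0.59 to 0.22) in EMM and 0.24 (-0.18 to 0.65) in Serum/LIF. EMM exceeded 2i/LIF at P20 by 2.65 (adjusted p = 2.51e-08, SE 0.239). At P10 EMM was below 2i/LIF, at -0.62 (adjusted p = 0.0112, SE 0.193), which did not pass, although it did without P10 2i/LIF replicate 1 or without P10 EMM replicate 1 (-0.76 in both, adjusted p = 0.00321 and 0.00895). EMM against Serum/LIF at P10 was 0.56 and passed without P10 EMM replicate 3 (0.74, adjusted p = 0.00414).

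**Figure D3:**
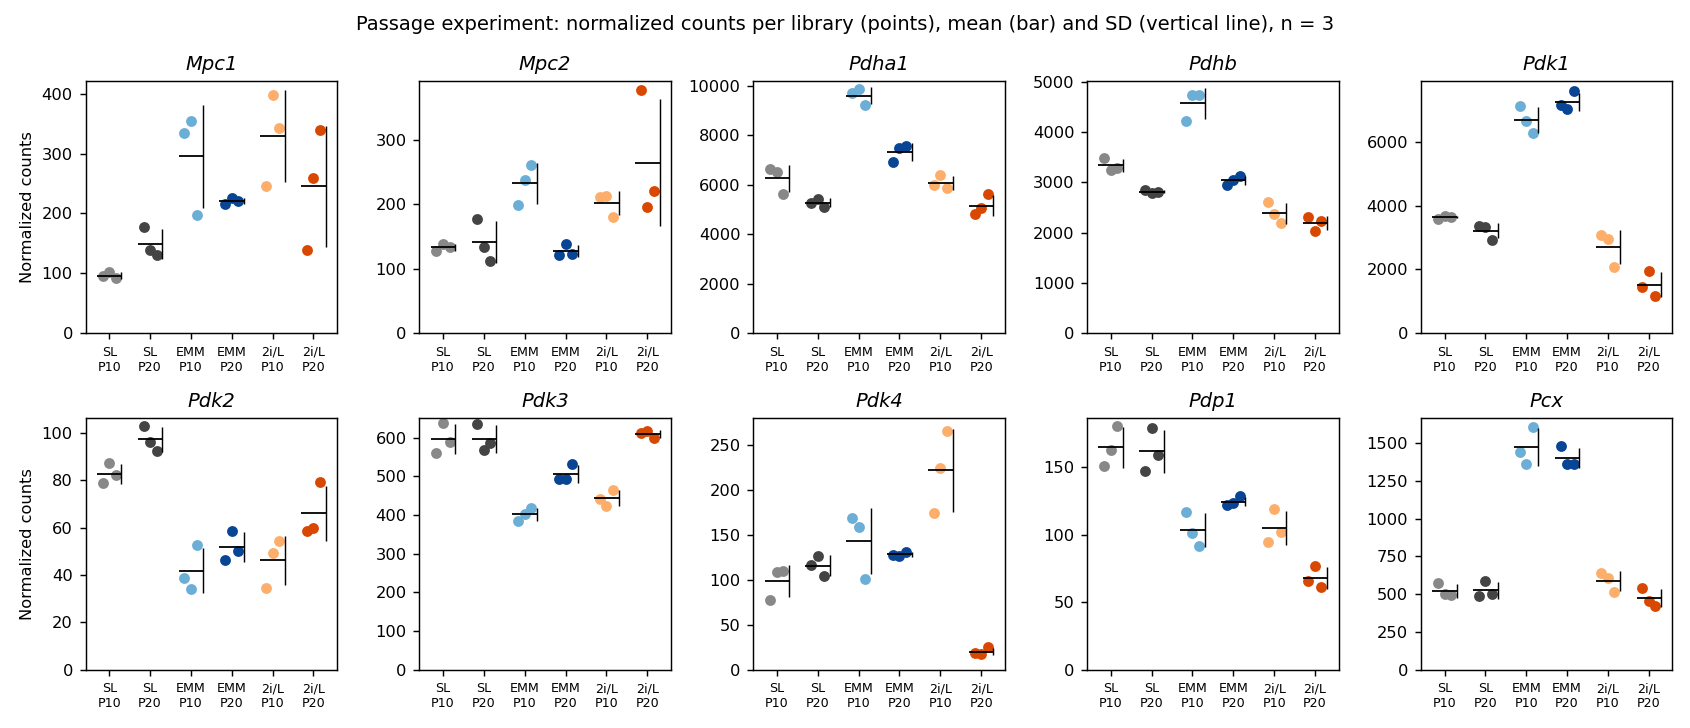
Normalized counts (vertical axes, from 0) of the 10 genes in Serum/LIF (SL), EMM and 2i/LIF (2i/L) after 10 (P10) and 20 (P20) passages, with 1 point per library, the mean as a bar and the SD as a vertical line (n = 3). Pdk1 and Pcx are highest in EMM at both passages, and Pdk4 is highest in 2i/LIF at P10 and lowest in 2i/LIF at P20.

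In P20 2i/LIF the genes of chromosome 6, which carries Pdk4, and of chromosome 8 were shifted upward as a whole. The median log2 fold change of the 746 chromosome 6 genes tested was 0.18 from P10 to P20 in 2i/LIF and 0.33 for 2i/LIF against Serum/LIF at P20. Pdk4 moved against that shift, and its difference from the chromosome median was -3.63 and -2.84 in those comparisons. At P10 the chromosome 6 median was 0.11 for 2i/LIF against Serum/LIF and -0.12 for EMM against 2i/LIF. Pdk4 had the same sign as the median there, at 1.18 and -0.62, and differed from it by 1.07 and -0.50. Chromosomes of other members had medians over 0.1 in size too. The median of chromosome 14, which carries Pdhb, was -0.18 for 2i/LIF against Serum/LIF and 0.17 for EMM against 2i/LIF at P20, where Pdhb itself was -0.36 and 0.47 and its difference from that median -0.19 and 0.30. That of chromosome X, which carries Pdha1 and Pdk3, was -0.14 from P10 to P20 in 2i/LIF, -0.12 and -0.12 for EMM against Serum/LIF at P10 and P20, and -0.17 for EMM against 2i/LIF at P10. Pdk3 differed from it by 0.60, -0.45, -0.12 and 0.02 in those comparisons, and Pdha1 by -0.09, 0.74, 0.59 and 0.83. That of chromosome 11, which carries Pdk2, was -0.13 for EMM against Serum/LIF at P20 and -0.11 for 2i/LIF against Serum/LIF at P10, where Pdk2 differed from it by -0.77 and -0.71. In the interactions the medians for EMM against 2i/LIF and for 2i/LIF against Serum/LIF were 0.24 and -0.19 on chromosome X, 0.14 and -0.15 on chromosome 14, and 0.15 and -0.10 on chromosome 1, which carries Mpc2. In the same order they were -0.15 and 0.17 on chromosome 6. The part of these shifts in the members' values was not tested.

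**Figure D4:**
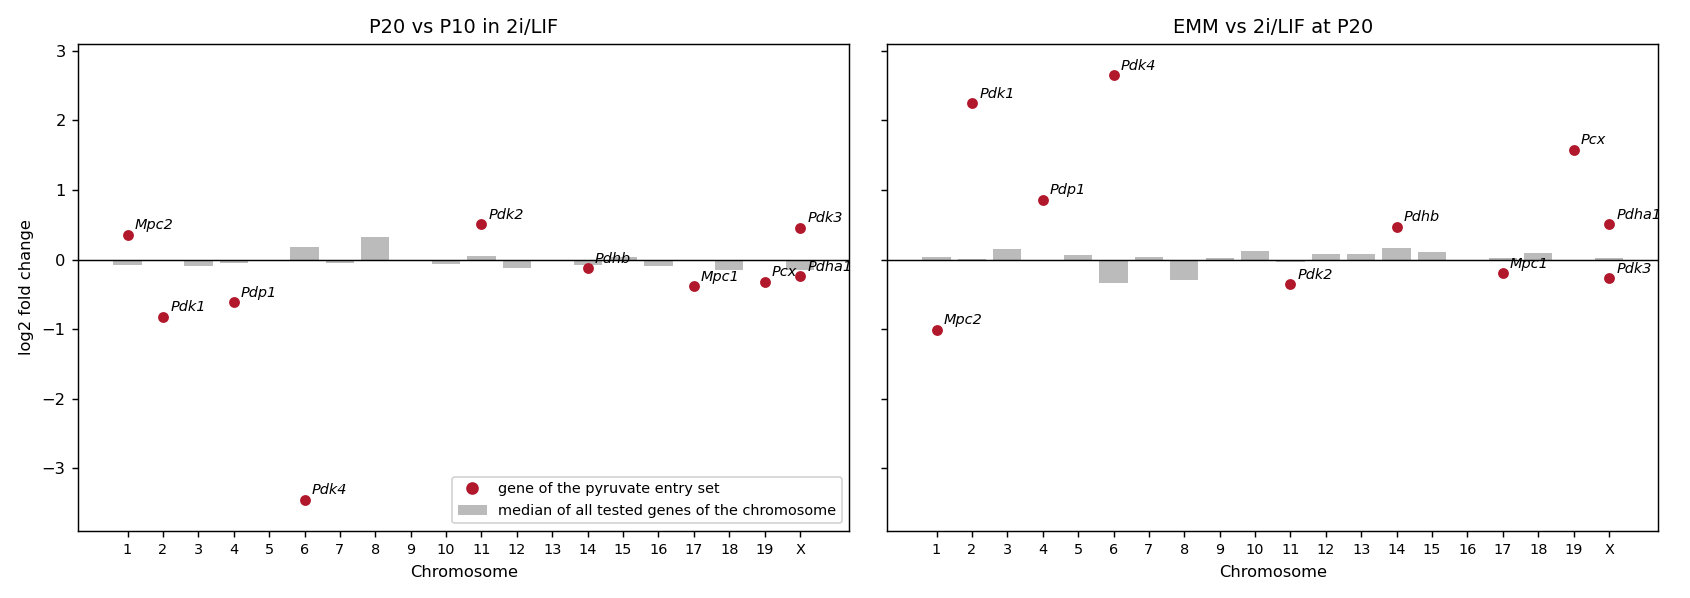
Median log2 fold change of all tested genes on each chromosome (grey bars) and the log2 fold change of each of the 10 genes at its chromosome (red points), for P20 against P10 in 2i/LIF (left) and EMM against 2i/LIF at P20 (right). Pdk4 at -3.45 and 2.65 lies on the opposite side of 0 from the median of chromosome 6 in both panels.

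The make-up of the kinase mRNA pool is described as each gene's share of the summed Pdk counts per kb of exon. Pdk1 made up 65.2% ± 0.724 (SD, n = 3) of the pool in Serum/LIF at 0 h and 71.9% ± 1.07 at 24 h of EMM, while Pdk3 went from 27.0% ± 0.660 to 22.0% ± 1.11. After long culture in EMM the pool was mostly Pdk1, with 80.3% ± 0.932 at P10 and 78.8% ± 0.299 at P20, against 62.0% ± 1.44 and 58.2% ± 1.53 in Serum/LIF. In 2i/LIF at P10, Pdk1 held 57.7% ± 7.30 and Pdk3 29.1% ± 3.81 of the pool, and both overlapped Serum/LIF at P10. In 2i/LIF, Pdk4 held 10.7% ± 3.08 at P10 and 1.28% ± 0.392 at P20. At P20 Pdk3 held 52.0% ± 4.86 there, beside 42.1% ± 6.37 for Pdk1. Those last 2 shares depend on the length used: per kb of the longest transcript, a choice added after seeing the data, they were 47.1% ± 4.98 and 47.1% ± 6.53. The summed level of the 4 kinase genes per kb was 1071 ± 54.7 in EMM, 756 ± 26.3 in Serum/LIF and 599 ± 49.3 in 2i/LIF at P10. At P20 it was 1184 ± 46.8 in EMM, 709.8 ± 41.6 in Serum/LIF and 460.4 ± 50.4 in 2i/LIF. The order of media was the same at both passages and the ranges did not overlap. In the time course the sum was 1867 ± 61.3 in Serum/LIF and 1727 ± 74.3 at 24 h. The shares and sums were not tested.

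**Figure D5:**
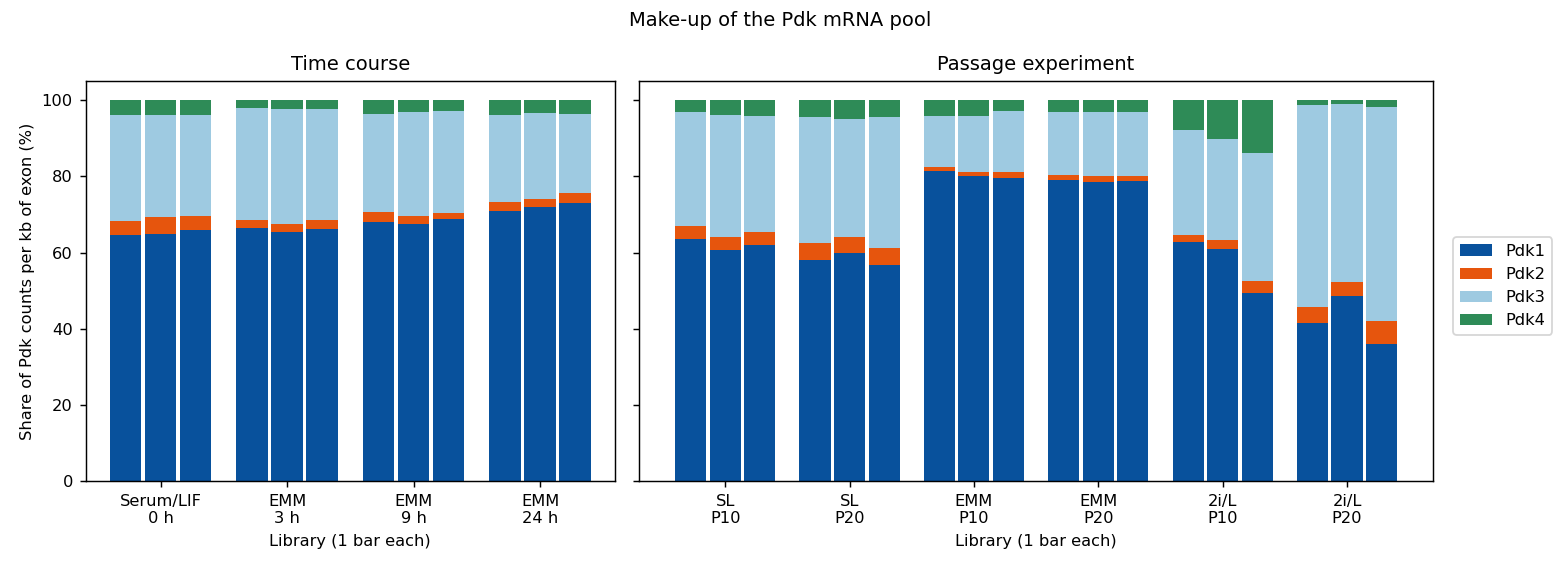
Share of each kinase gene in the summed Pdk normalized counts per kb of exon (vertical axis, %), with 1 bar per library grouped by medium and time (left) or passage (right). Pdk1 fills about the same share in all 6 EMM libraries of the passage experiment, and in 2i/LIF the Pdk4 share is largest at P10 and smallest at P20.

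Pdp1 (chromosome 4, 11958184 to 11966452), which encodes a phosphatase that opposes the kinases, fell in EMM alongside Pdk2. Pdp2, the second phosphatase gene, was higher at 24 h (0.26) and is described further below. Pdp1 had 343, 389 and 360.3 normalized counts in Serum/LIF and 169, 153 and 159 at 3 h. At 9 h it had 219.8, 187 and 188 and at 24 h 234, 195 and 204. All EMM libraries lay far below all controls. The log2 fold change was -1.19 (adjusted p = 9.69e-08, SE 0.0929) at 3 h, the largest fall of the 10 genes in the time course, then -0.88 (adjusted p = 1.47e-06, SE 0.0907) and -0.79 (adjusted p = 3.11e-06, SE 0.0906). In the passage experiment Pdp1 was 150.5, 163 and 180.5 in Serum/LIF, 117, 101 and 91.6 in EMM and 94.2, 119 and 102 in 2i/LIF at P10, so that the last 2 media overlapped. At P20 it was 147, 179 and 159 in Serum/LIF, 122, 123 and 128 in EMM and 65.8, 76.8 and 61.3 in 2i/LIF, with 2i/LIF lowest and Serum/LIF highest. EMM was below Serum/LIF, at -0.65 (adjusted p = 0.000997, SE 0.143) at P10, and at P20 the difference of -0.38 (adjusted p = 0.0336, SE 0.136) did not pass. 2i/LIF was below Serum/LIF, at -0.65 (adjusted p = 0.000657, SE 0.142) and -1.24 (adjusted p = 1.09e-06, SE 0.147). EMM exceeded 2i/LIF at P20 by 0.86 (adjusted p = 5.89e-05, SE 0.146). The fall from P10 to P20 in 2i/LIF (-0.61, adjusted p = 0.00347, SE 0.152) was lost without P10 2i/LIF replicate 2 (adjusted p = 0.0219) or P20 2i/LIF replicate 3 (0.021). It was also lost with the replicate number as a block in a fit of those 6 libraries (-0.62, adjusted p = 0.0298).

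Pcx (chromosome 19, 4510472 to 4621752) rose slowly within a day and was far higher in EMM after long culture. It had 1264, 1277 and 1134 normalized counts in Serum/LIF and 1208, 1247 and 1250.1 at 3 h, which overlapped. At 24 h it had 1496, 1389 and 1506, above every control, with a log2 fold change of 0.26 (adjusted p = 0.00192, SE 0.0598). At 9 h the log2 fold change was 0.17 and passed without EMM 9 h replicate 3 (0.24, adjusted p = 0.00343). At P10 it had 1444, 1362 and 1608 in EMM against 575, 501 and 492 in Serum/LIF and 639, 607 and 512 in 2i/LIF. At P20 it had 1481, 1363 and 1362 in EMM against 485, 589 and 503 in Serum/LIF and 540.4, 456 and 422 in 2i/LIF. EMM stood above every library of the other media, which overlapped each other at both passages. The log2 fold changes of EMM were 1.49 (adjusted p = 4.13e-09, SE 0.11) and 1.41 (adjusted p = 2.46e-08, SE 0.108) against Serum/LIF and 1.33 (adjusted p = 1.06e-08, SE 0.11) and 1.58 (adjusted p = 7.76e-10, SE 0.111) against 2i/LIF, for P10 and P20 in turn. No leave-one-out fit lost any of these 4 calls. 2i/LIF and Serum/LIF differed by 0.16 (95% interval -0.07 to 0.39) at P10 and -0.17 (-0.41 to 0.06) at P20.

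Passage itself was compared within each medium. In Serum/LIF, 0 of the 10 genes changed from P10 to P20 with edgeR on the filtered genes, against 6.01% of all genes, 3 genes had an unadjusted p under 0.05 (Mpc1, Pdha1 and Pdhb), and DESeq2 called 2 (Pdha1 and Pdhb). With other edgeR settings 1 gene passed: Mpc1 with no filter on low counts (0.59, adjusted p = 0.00859), and Pdhb in a fit of the 6 Serum/LIF libraries alone (-0.24, adjusted p = 0.00931). In EMM, 1 gene was higher (Pdk3) and 3 were lower, against 25.3% of all genes. The lower ones were Pdhb (-0.59, adjusted p = 6.84e-06, SE 0.0718), Pdha1 (-0.39, adjusted p = 0.00051, SE 0.0746) and Mpc2 (-0.85, adjusted p = 0.00329, SE 0.204), of which Mpc2 lost its call without any one of P10 EMM replicates 2 and 3 or P20 EMM replicates 1 and 3 (adjusted p up to 0.0152). In 2i/LIF, 1 gene was higher (Pdk3) and 3 were lower (Pdk4, Pdk1 and Pdp1), against 28.3% of all genes. The fall of Pdk1 in 2i/LIF was -0.82 (adjusted p = 0.000263, SE 0.149). In a fit of the 6 2i/LIF libraries alone only Pdk4 was called, and the adjusted p was 0.0191 for Pdk1, 0.0101 for Pdk3 and 0.0637 for Pdp1. With the replicate number as a block in that fit 3 genes were called, and Pdp1 was not among them.

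Whether a difference between media itself differed between P20 and P10 was tested as an interaction. For EMM against 2i/LIF, 5 of the 10 genes passed, against 32.3% of all genes: Pdk4 (3.27, adjusted p = 3.07e-07, SE 0.309), Pdk1 (0.94, adjusted p = 0.00129, SE 0.207), Pdp1 (0.87, adjusted p = 0.00258, SE 0.208), Pdhb (-0.46, adjusted p = 0.00132, SE 0.102) and Mpc2 (-1.21, adjusted p = 0.00239, SE 0.288). The first 3 were higher in EMM relative to 2i/LIF at P20 than at P10, and the last 2 lower. Pdp1 did not pass in this contrast with no filter on low counts. For 2i/LIF against Serum/LIF, 2 passed against 20% of all genes, Pdk4 (-3.69, adjusted p = 4.08e-07, SE 0.312) and Pdk3 (0.46, adjusted p = 0.00411, SE 0.11). The Pdk3 call was lost without any one of P10 2i/LIF replicate 2, P10 Serum/LIF replicate 2 or P20 Serum/LIF replicates 2 and 3 (adjusted p up to 0.0148). Pdk1 (-0.64) passed in that contrast without P10 2i/LIF replicate 3 (-0.80, adjusted p = 0.00445) or P20 2i/LIF replicate 2 (-0.87, 0.00168), and Mpc1 (-1.01) without P20 2i/LIF replicate 3 (-1.29, 0.0091). For EMM against Serum/LIF, 0 passed with edgeR on the filtered genes or with DESeq2, against 14.7% of all genes, and 4 genes had an unadjusted p under 0.05 (Mpc1, Mpc2, Pdhb and Pdk3). With no filter on low counts, 2 passed, Mpc1 (-0.99, adjusted p = 0.000307) and Mpc2 (-0.86, 0.00631). Whether calls made at P10 but not at P20 in that contrast differ between passages thus depends on the filter for Mpc1 and Mpc2, and a difference is not shown for the others.

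Other genes around pyruvate were taken from lists chosen with earlier results of these data known, so their counts are descriptions. Of the 7 genes listed with the pyruvate dehydrogenase complex or its carrier (E2 and E3 parts, regulators and testis copies), 5 were tested in the time course, and 1 was higher and 1 lower at 24 h, where 44% of all genes changed. Pdp2, the second phosphatase gene, was the higher one (0.26, adjusted p = 0.000803, SE 0.055) and Dlat, the E2 core, the lower (-0.18, adjusted p = 0.00116, SE 0.0397). In the passage experiment Pdp2 had 2289, 2428 and 2488 normalized counts in 2i/LIF at P10, 528, 477 and 531 in EMM and 439, 456 and 455 in Serum/LIF. Its log2 fold change for 2i/LIF against Serum/LIF was 2.42 at P10 and 2.39 at P20, where that of Pdp1 was negative at both. This Pdp2 contrast was chosen after its values were seen. Pdha2, the testis copy of Pdha1, had 2, 12 and 3 raw counts in EMM and 13, 61 and 35 in 2i/LIF at P20, and reads it shares with Pdha1 could be split between them.

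Among 9 genes for lactate and alanine exchange of pyruvate, 1 was higher and 6 were lower at 24 h of EMM (background 44%), with a median of -0.25. Ldhb, a lactate dehydrogenase subunit, rose (0.84, adjusted p = 1.57e-09, SE 0.047) and Gpt2, the mitochondrial alanine transaminase, fell (-0.87, adjusted p = 2.19e-09, SE 0.05). Against Serum/LIF at P10, 2 were higher and 2 lower (background 37.4%), with Ldhb at 1.07 and Gpt2 at -0.77. Among malic enzymes and PEP carboxykinases, 3 of 5 were tested and Pck2, the mitochondrial PEP carboxykinase, fell from 1833, 1722 and 1730.1 to 599, 575 and 594 at 24 h (-1.58, adjusted p = 2.48e-11, SE 0.0598). Me1, the cytosolic malic enzyme, rose by 0.52 (adjusted p = 5.84e-06, SE 0.0642) at 24 h and by 0.92 at P10 and 0.75 at P20 against Serum/LIF. All 3 lipoylation genes, which supply the cofactor of the E2 core, were lower at 24 h (background 44%), with a median of -0.42, and Lipt2 fell the most (-0.51, adjusted p = 0.00118, SE 0.111). Of the 7 genes of the sister 2-oxo acid dehydrogenases, 2 were lower at 24 h against the same background, with Bckdha at -0.31.

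Of 8 further targets of hypoxia-inducible factors, 1 was higher and 4 were lower at 3 h of EMM (background 34.5%, median -0.68). Of these 8, 5 rose for EMM against 2i/LIF at P10 (background 45.1%, median 1.18), and 6 at P20 (background 48.6%, median 1.38). Egln3, an oxygen-sensing prolyl hydroxylase, had the largest rise of the list there, with log2 fold changes of 2.75 (adjusted p = 6.5e-08, SE 0.26) and 4.18 (adjusted p = 8.41e-11, SE 0.248). At 24 h of EMM against Serum/LIF, Egln3 had the largest called fall of the list (-1.32, adjusted p = 1.44e-05, SE 0.177). Ndrg1 had the largest called rise at that time (1.07). For EMM against Serum/LIF at P10, Car9 rose most (1.76, from a mean of 5.32 normalized counts) and Slc2a1 fell most (-0.53). Against Serum/LIF at P20, 4 of the 8 were higher and 1 lower (background 26%), with Ndrg1 at 1.15 and Ankrd37 at -1.41. Of 12 factors known to act on Pdk4 or Pdk1, 9 were tested, and 3 were higher and 4 lower at 3 h (background 34.5%). Ppargc1b, a coactivator of ERR and PPAR receptors, rose (1.65, adjusted p = 7.01e-10, SE 0.0795) and Foxo1 fell (-0.74, adjusted p = 2.31e-07, SE 0.0627). For EMM against 2i/LIF, Epas1 had the largest called rise of these factors, at 2.44 at P10 and 0.96 at P20. Foxo3 had the largest called fall at P10 (-0.81). Of 10 PPAR and FOXO targets, 9 were tested in the passage experiment, and 2 were above and 3 below 2i/LIF in EMM at P20 (background 48.6%), with Irs2 at 2.49 and Bcl6 at -1.41. Of the same 9, 3 were higher and 2 lower at 24 h (background 44%), with Klf15, a factor of fasting metabolism, at a log2 fold change of 0.95 and Angptl4, a lipase inhibitor, at -0.71. Against Serum/LIF at P10, 3 were higher and 1 lower (background 37.4%), with Klf15 at 2.05 and Irs2 at -1.15.

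Genes whose pattern was most like that of a kinase gene were ranked by the smaller of the Pearson correlations of log2 CPM over the 12 time-course and the 18 passage libraries, among 14652 genes. For Pdk1 these were Rap1gds1 (0.85 and 0.87), Dtna (0.85 and 0.90) and Mmut (0.84 and 0.90). For Pdk2 they were Dtx3l (0.91 and 0.87), Pbx2 (0.85 and 0.87) and Ribc1 (0.88 and 0.83). For Pdk3 they were Suclg2 (0.94 and 0.89), Klf10 (0.92 and 0.89) and Xpot (0.89 and 0.90). For Pdk4 they were Trafd1 (0.87 and 0.91), Mertk (0.87 and 0.90) and Uhrf2 (0.86 and 0.86). The points share libraries, depth and groups, so these values describe likeness in these samples.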

How the data were processed

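RNA-seq was done on 12 time-course and 18 passage libraries. The authors deposited raw read counts per gene for the time course. Estimated counts are what the authors deposited for the other experiment, of which 9.98% were not whole and were rounded here. The submitters' processing notes name STAR, featureCounts, Salmon, DESeq2 and mm10 without versions. The study's methods name HTSeq and separate intron and exon counting, and which applies to the time-course table is not stated, nor is the use of strand there. Intronic reads, if included, would change levels per kb. The library kit of the passage experiment keeps strand.

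Each table was analysed alone in R 4.3.3 with edgeR 4.0.16 and limma 3.58.1: filterByExpr, TMM normalization and the quasi-likelihood test, with all groups of an experiment in 1 model and Benjamini-Hochberg adjustment over all genes tested. A gene was called changed at an adjusted p under 0.01. The two-sided tests gave 95% intervals of single differences. Normalized counts are counts over effective library size, times the mean effective size of the experiment. Per the study's methods, the replicates of a condition came from independent experiments. No pair of replicates agreed within counting noise, with a chi-square per gene from 1.99 to 52.2. The highest values, 52.2 and 44.8, were those of P20 2i/LIF replicate 1 against replicates 2 and 3, which gave 13.4 with each other.

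The fit was tested on simulated data with known changes. The 10 genes and all lists were chosen with earlier results of these data known. Besides the 10, the rule named, per list, the largest rise and fall at an adjusted p under 0.01 in EMM at 3 h and 24 h against Serum/LIF and in EMM against either medium at P10 and P20, and the 3 genes most like each kinase gene. Of the listed genes Mpc1l was not found by symbol. Gene positions and exon lengths come from GENCODE M21 on GRCm38.

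Same-numbered libraries of the titles were checked for shared deviations from their group means. The correlations were all above 0.1 only for P20 against P10 in 2i/LIF, from 0.13 to 0.30. A single value of that size also occurred elsewhere (0.21 for replicate 3 of EMM 9 h against Serum/LIF). The numbers may thus pair the 2i/LIF libraries, but this was not shown. Alternatives were DESeq2 1.42.0 and its size factors, library totals alone, no filter, at least 10 counts in every library, other thresholds, fits of only the groups compared, a replicate block, and each library left out in turn.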

Additional observations from a re-analysis of the deposited data

Results flagged for a closer look

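The differences between media that themselves differed between P20 and P10, by an interaction term in edgeR, were those of Pdk4 (3.27), Pdk1 (0.94), Pdp1 (0.87), Pdhb (-0.46) and Mpc2 (-1.21) for EMM against 2i/LIF. For 2i/LIF against Serum/LIF they were those of Pdk4 (-3.69) and Pdk3 (0.46). Of these, Pdk3 did not pass without any one of 4 libraries, with library totals alone (adjusted p = 0.0125) or with no filter on low counts (0.0202), and Pdp1 did not pass with no filter (0.0155). All values are log2 differences, P20 minus P10. Both contrasts use the same 2i/LIF libraries. Within the time course, the response to EMM differed between 9 h and 3 h for Pdk4 (0.51) and Pdha1 (0.24), and between 24 h and 9 h for Pdk3 (-0.30). The Pdk3 step was not called without EMM 9 h replicate 2, without EMM 24 h replicate 3 or with only the groups compared (adjusted p = 0.0195).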

How the results depend on the processing

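Counts of changed genes among the 10 depended mostly on the size of change asked for. Where a log2 change larger than 1 was also required, the count was 1 at 3 h and 0 at 9 h, at 24 h, from 3 h to 9 h and from 9 h to 24 h. In the same setting it was 3 and 2 for EMM against Serum/LIF at P10 and P20, 2 and 4 for EMM against 2i/LIF, 2 and 3 for 2i/LIF against Serum/LIF, 0 and 1 for P20 against P10 in EMM and 2i/LIF, and 2 and 1 for the interactions of EMM against 2i/LIF and of 2i/LIF against Serum/LIF. At an adjusted p under 0.05 it was 5 from 3 h to 9 h, 3 from 9 h to 24 h, 2 for passage in Serum/LIF, and 4 and 5 for the interactions of EMM and 2i/LIF against Serum/LIF. With only the groups compared it was 0 from 9 h to 24 h and 1 for passage in 2i/LIF and in Serum/LIF. With no filter it was 1 for passage in Serum/LIF and 2 for the interaction of EMM against Serum/LIF. DESeq2 gave 2 for passage in Serum/LIF. The interaction of 2i/LIF against Serum/LIF gave 1 with library totals alone and 1 with at least 10 counts in every library, where Pdk4 was not tested and Pdk3 kept its call. The causes were not tested.

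Leaving out 1 library at a time gave 4 to 5 genes at 3 h, 4 to 6 at 9 h, 7 to 8 at 24 h, 2 to 3 from 3 h to 9 h and 0 to 1 from 9 h to 24 h. It gave 8 to 9 and 4 to 4 for EMM against Serum/LIF at P10 and P20, 4 to 5 and 7 to 8 for EMM against 2i/LIF, and 6 to 7 and 4 to 6 for 2i/LIF against Serum/LIF. For passage it gave 2 to 4 in EMM, 3 to 5 in 2i/LIF and 0 to 0 in Serum/LIF, and for the interactions 0 to 0, 5 to 5 and 1 to 3.

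Signs turned for differences near 0 that were not called. With library totals alone these were Pdk3 (-0.069) and Pcx (-0.057) at 3 h, Pdhb (0.0075) and Pdk2 (0.011) from 3 h to 9 h, Pdk3 for 2i/LIF against Serum/LIF at P20 (-0.087), Pcx for passage in EMM (0.011), Pdk3 (0.066) and Pdp1 (0.047) for passage in Serum/LIF, and the interactions of Mpc1 for EMM against 2i/LIF (0.015) and Pdha1 for 2i/LIF against Serum/LIF (-0.063). With at least 10 counts they were Pdk3 at 3 h (-0.0015) and for 2i/LIF against Serum/LIF at P20 (-0.048), and Pdp1 for EMM against 2i/LIF at P10 (0.0039), which was 0.013 with DESeq2. For passage in Serum/LIF, Pcx was -0.0036 with DESeq2 size factors, -0.020 with no filter and -0.0030 with DESeq2, and Pdk3 was 0.0019 with only the groups compared.

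Left-out libraries also turned the sign of uncalled differences, over these ranges. At 3 h they were -0.22 to 0.028 for Mpc2, -0.0041 to 0.021 for Pdk3 and -0.037 to 0.053 for Pcx, at 9 h -0.063 to 0.24 for Mpc2 and -0.050 to 0.0078 for Pdk1, and from 3 h to 9 h -0.12 to 0.089 for Pdk2. For EMM against Serum/LIF at P20 it was -0.27 to 0.038 for Mpc2. For EMM against 2i/LIF they were -0.30 to 0.067 for Mpc1 and -0.11 to 0.088 for Pdp1 at P10, and -0.44 to 0.088 for Mpc1 at P20. For 2i/LIF against Serum/LIF they were -0.11 to 0.0093 at P10 and -0.096 to 0.017 at P20 for Pdha1, and -0.0052 to 0.079 for Pdk3 at P20. For passage in Serum/LIF they were -0.10 to 0.21 for Mpc2, -0.046 to 0.050 for Pdk3, -0.11 to 0.046 for Pdp1 and -0.082 to 0.088 for Pcx. For the interactions they were -0.17 to 0.015 for Pcx (EMM against Serum/LIF), -0.31 to 0.22 for Mpc1 and -0.31 to 0.0055 for Pdk2 (EMM against 2i/LIF), and -0.037 to 0.46 for Mpc2 and -0.052 to 0.078 for Pdha1 (2i/LIF against Serum/LIF).

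With the replicate block by title number, the count was 7 for 2i/LIF against Serum/LIF at P10, where Pdk1 was gained, Pdp1 for EMM against 2i/LIF at P10 turned to 0.0025, and no other count moved. In the 6 2i/LIF libraries of P10 and P20 alone the block gave 3. A block by the number in the sample descriptions, chosen after seeing the data, gave 5 at 9 h, 6 at 24 h and 3 from 3 h to 9 h, and Pdk1 at 24 h turned to -0.0025. Scaling by library totals alone put the median of all genes at -0.12 for 2i/LIF against Serum/LIF at P20, 0.12 for passage in EMM, and 0.14 and -0.12 for the interactions of EMM against 2i/LIF and of 2i/LIF against Serum/LIF. The passage experiment had both shallower libraries and a higher common dispersion (0.0153 against 0.00364), and their parts in what could be called there were not told apart.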
